A study of Mus musculus with 8 samples.

Results

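Mitochondrial ribosomal protein genes were followed in LB-22 cells, an immortalized line of mouse embryonic kidney, after an siRNA against Wt1. The members were all probe sets whose single annotated symbol begins with Mrpl or Mrps and a number, which gave 156 of the 45101 probe sets of the array. They stand for 76 of the 18193 named genes, 47 named for the large subunit (104 probe sets) and 29 named for the small subunit (52 probe sets). Symbols alone chose them, and no measured value entered the rule. A further 4 probe sets that list such a symbol beside another gene were not members. Below, subunits follow the symbol, although the proteins of Mrps18a, Mrps30 and Mrps36 are placed elsewhere than in the small subunit.

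The study compared 4 arrays of control siRNA cells with 4 arrays of Wt1 siRNA cells. Both groups were the same cell line, grown up at 33 °C with 10 U/ml interferon gamma and moved to 37 °C without interferon when transfected. A scrambled or a Wt1 siRNA (25 pmol, carried by a lipid reagent) was applied for 6 h, and total RNA was taken 48 h after transfection. As a model, this is a transient knockdown in a single immortalized line. The labels do not say that the replicates were separate cultures, so the p-values speak only to the spread among these 8 arrays, and that spread may be technical.

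The mitochondrial ribosome translates the few messages of the mitochondrial genome, nearly all of which encode subunits of the respiratory chain. Its RNAs are made in the mitochondrion, whereas its proteins are encoded in the nucleus, translated in the cytosol and imported. Some of these proteins descend from bacterial ribosomal proteins and others are found only in mitochondria. The small subunit reads the message, and the large subunit joins the amino acids and leads the new chain out through an exit tunnel to the inner membrane.

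Wt1 itself, which encodes a zinc finger protein that acts in kidney development, retained 20.5% of its control signal (log2 difference -2.28 ± 0.11, SE, n = 4 each; limma adjusted p = 5.91e-08). Arrays correlated at 0.977 to 0.991 within groups and at 0.940 to 0.960 between groups over 9096 tested genes. Of the kidney mesenchyme markers, 5 of the 9 on the array had a control signal above the highest bacterial control probe set (227.2), namely Wt1, Osr1, Six2, Eya1 and Hoxa11, while Sall1, Cited1, Gdnf and Hoxd11 did not. So did 5 of 7 stromal, 4 of 5 epithelial, 1 of 5 endothelial (Kdr) and 3 of 4 leukocyte markers (not Ptprc). Summed marker signals lay outside the control range on every Wt1 siRNA array. They ran from 10062 to 11512 on control and 4943 to 6020 on Wt1 siRNA arrays for mesenchyme, which includes Wt1, from 29529 to 33882 and 16082 to 22596 for stroma, and from 14212 to 16764 and 12838 to 13207 for epithelium. For endothelium they ran from 2072 to 2890 and 1697 to 2043, and for leukocytes from 1946 to 2087 and 2667 to 3118. Wt1, the siRNA target, had mean signals of 7787 on control and 1610 on Wt1 siRNA arrays. It made up most of the mesenchyme sum on control arrays, so that sum does not show a fall of the other mesenchyme markers. Members of the mesenchyme, epithelial, endothelial and leukocyte lists did not move together. All 7 stromal markers had lower mean signals on Wt1 siRNA arrays, though Foxd1, under the bacterial controls, had a log2 difference of 0.66. Among mesenchyme markers, the mean signal of Osr1 was 994 on control and 1623 on Wt1 siRNA arrays. Six2, Eya1, Sall1 and Hoxa11 also had higher means, opposite to Wt1, while Cited1, Gdnf and Hoxd11 had lower means. Of these, Sall1, Cited1, Gdnf and Hoxd11 lay under the bacterial controls. Among epithelial markers Epcam and Krt18 were lower and Krt8 and Cdh1 higher, with log2 differences of -2.10, -0.19, 0.55 and 0.95. Col1a1 and Dcn, the brightest stromal markers, were at -0.65 and -1.36, and Kdr, the brightest endothelial one, at -0.45. Among leukocyte markers Cd68 was at 1091 and 2164 and Adgre1 at 585 and 324. The part of these markers in the results was not tested. In RNA of a whole culture, fewer cells of a type and less RNA per cell cannot be told apart.

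Most mitochondrial ribosomal protein genes changed little after Wt1 siRNA, and those that passed the test went both ways. All 76 genes were bright enough to be tested, with signals from 1319 to 21376 on any array. With limma, 21 of the 76 (27.6%) differed at an adjusted p under 0.05, against 37.3% of all tested genes. In the large subunit 4 genes rose, 9 fell and 34 did not pass. In the small subunit 3 rose, 5 fell and 21 did not pass. Over all tested genes 18.8% rose and 18.5% fell. The median log2 difference, Wt1 siRNA minus control siRNA, was -0.02 for the large subunit, 0.01 for the small subunit and 0.02 for all tested genes. Whether the members differ from other genes was not tested.

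The changes were also small. None of the 76 genes passed the limma test with a change of at least 1.5-fold, against 11.0% of all tested genes. The widest differences were -0.58 for Mrpl33 and 0.49 for Mrpl32 on the log2 scale. The median absolute difference was 0.14 for the 76 genes and 0.21 for all tested genes, and the median SD within groups was 0.11 and 0.14. The members were brighter than most tested genes. Their median brightness exceeded that of 69.0% of tested genes, and 64 of the 76 were in the brightest share of 0.25 of named genes. The comparisons in this paragraph were not matched for brightness. For 71 of the 76 genes the 95% interval of the difference lay within a 1.5-fold change in either direction, and this held for 69.4% of all tested genes. The exceptions were Mrpl33, Mrpl44, Mrpl37, Mrpl47 and Mrpl32. The groups did not overlap in 20 of the 76 genes (26.3%), against 36.3% of all tested genes.

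**Figure D1:**
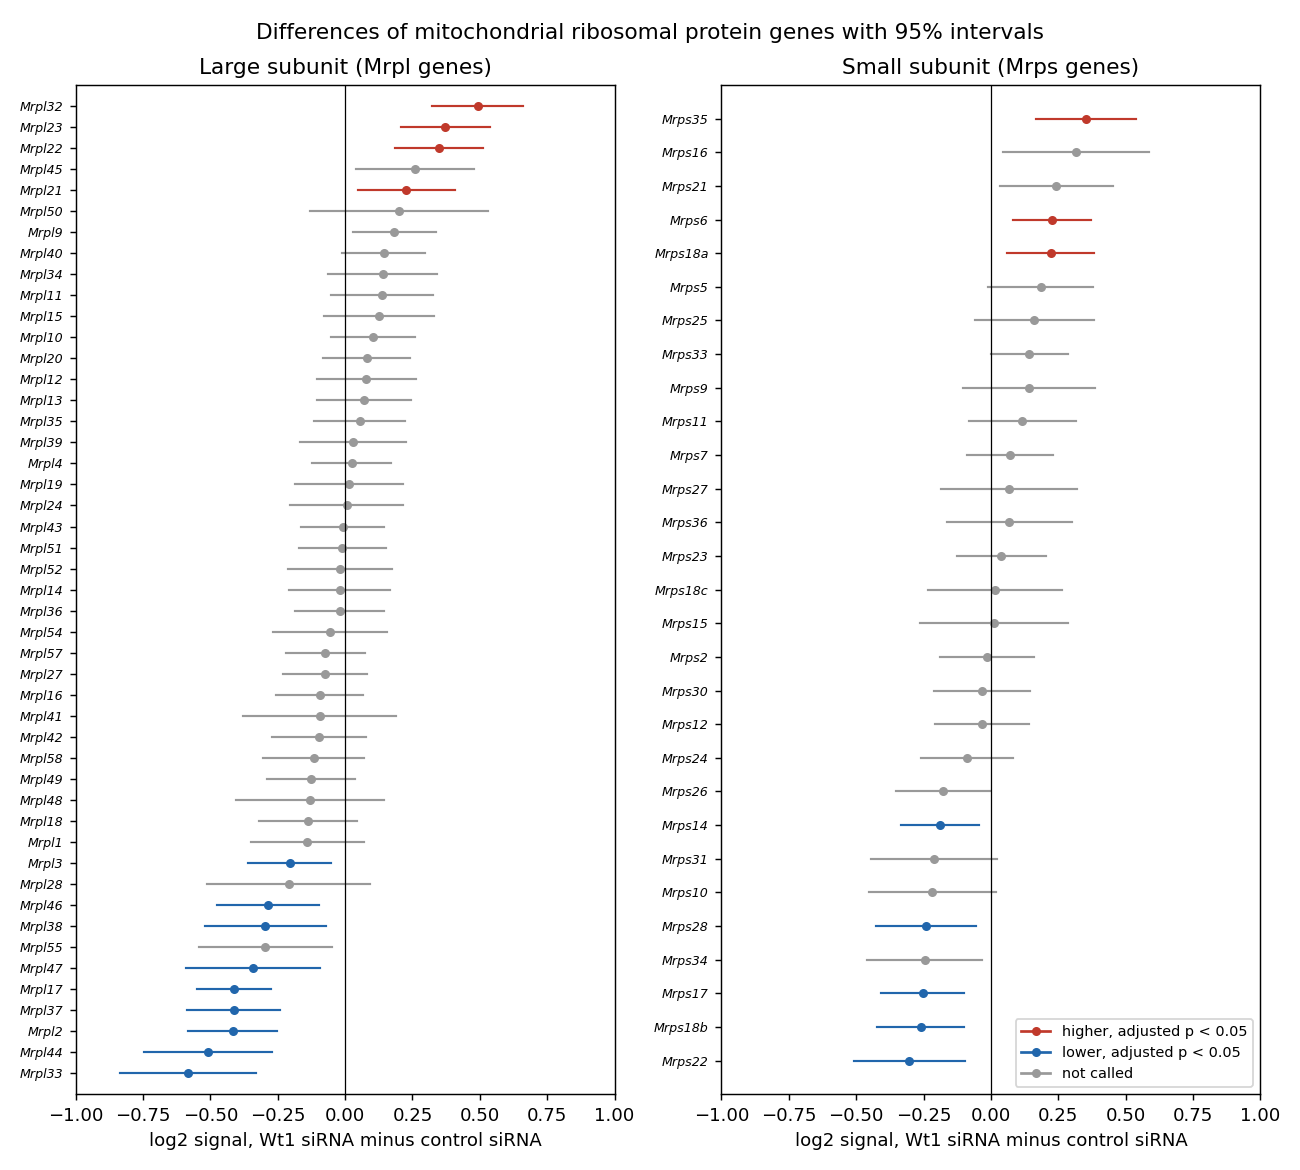
Difference of each of the 76 genes (x axis, log2 signal, Wt1 siRNA minus control siRNA), with points for estimates and lines for 95% intervals. Genes named for the large subunit (47) are on the left and for the small subunit (29) on the right, coloured by the limma call. Differences run from -0.58 for Mrpl33 to 0.49 for Mrpl32, and most intervals cross 0.

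How many genes passed, and in which direction, depended on how arrays were scaled. The deposited signals share a common trimmed mean. Centring each array on the median log2 signal of all its probe sets moved the median difference of all tested genes up by 0.11. On that scale 3 genes of the large subunit rose and 1 fell by limma, and 2 of the small subunit rose and 0 fell (also 0 lower at an unadjusted p under 0.05), against 17.4% higher and 8.63% lower over all tested genes. The subunit medians were then 0.09 and 0.12, beside 0.12 for all tested genes. Centring on the tested genes only, an alternative chosen after seeing the data, gave 7 higher and 13 lower among the 76 (26.3% called), against 1837 higher and 1621 lower among all 9096 tested genes (38.0% called). The rises of Mrpl32, Mrpl23, Mrpl22 and Mrps35 held in all 19 alternatives run for them. The fall of Mrpl33 also held with median-centred arrays (-0.48, adjusted p = 0.0288), whereas those of Mrpl2, Mrpl37 and Mrpl17 kept their direction but did not pass (adjusted p = 0.123, 0.127 and 0.113).

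Wt1 siRNA array 4 stood apart for these genes. The median over the large subunit, relative to the control mean, was -0.14 on Wt1 siRNA array 4 and -0.01 to 0.03 on the other Wt1 siRNA arrays. For the small subunit it was -0.15 on array 4 and 0.03 to 0.05 on the others, while over all tested genes it was -0.02 on array 4 and 0.02 to 0.03 on the others. Array 4 was the lowest Wt1 siRNA array for 49 of the 76 genes (64.5%), against 40.6% of all tested genes, and for 10 of the 14 genes called lower. Its part in the falls was not tested beyond leaving it out. Without it 4 large subunit genes rose and 6 fell, and 3 small subunit genes rose and 2 fell. Its omission lost 8 of the 21 calls, where leaving out any 1 array lost between 2 and 9. The share of all tested genes called without it is not given here.

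The start regions of 4 members are shown because these genes carry the widest rise (Mrpl32), the widest fall (Mrpl33), a fall beside a rising neighbour (Mrpl2) and a start shared with another member (Mrpl46). Each window runs from 250 bases before to 50 bases after the RefSeq transcript start (build GRCm38.p6). Capitals mark matches to any of 5 short strings searched on both strands. These were the palindromic core of NRF1, a regulator of nuclear genes for mitochondria, CCGGAAG for ETS factors such as GABPA, AAGATGGCG for YY1, GGGCGG for Sp factors and GCGTGGGAG for WT1. The ETS and YY1 strings can share the letters AAG.
Mrpl32 (chr13:14612988-14613287, minus strand): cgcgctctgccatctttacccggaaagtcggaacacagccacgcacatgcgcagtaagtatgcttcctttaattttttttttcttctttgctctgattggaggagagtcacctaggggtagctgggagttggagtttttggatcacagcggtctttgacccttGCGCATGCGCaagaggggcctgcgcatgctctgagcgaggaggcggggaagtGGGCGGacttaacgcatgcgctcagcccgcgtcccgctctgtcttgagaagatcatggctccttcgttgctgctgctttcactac
Mrpl33 (chr5:31613701-31614000, plus strand): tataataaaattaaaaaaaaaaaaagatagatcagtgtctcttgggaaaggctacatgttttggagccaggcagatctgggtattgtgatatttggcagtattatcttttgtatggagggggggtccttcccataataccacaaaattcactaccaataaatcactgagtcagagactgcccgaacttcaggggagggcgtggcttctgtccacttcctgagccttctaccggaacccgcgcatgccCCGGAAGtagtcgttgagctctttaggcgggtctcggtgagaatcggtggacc
Mrpl2 (chr17:46645971-46646270, plus strand, the first of 3 listed starts): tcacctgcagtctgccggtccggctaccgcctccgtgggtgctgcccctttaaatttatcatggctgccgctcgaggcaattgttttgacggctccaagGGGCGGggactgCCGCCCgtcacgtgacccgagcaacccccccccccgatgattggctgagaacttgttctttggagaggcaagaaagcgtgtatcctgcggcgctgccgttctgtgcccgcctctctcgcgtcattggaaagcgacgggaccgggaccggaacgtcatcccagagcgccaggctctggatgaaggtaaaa
Mrpl46 (chr7:78783040-78783339, minus strand): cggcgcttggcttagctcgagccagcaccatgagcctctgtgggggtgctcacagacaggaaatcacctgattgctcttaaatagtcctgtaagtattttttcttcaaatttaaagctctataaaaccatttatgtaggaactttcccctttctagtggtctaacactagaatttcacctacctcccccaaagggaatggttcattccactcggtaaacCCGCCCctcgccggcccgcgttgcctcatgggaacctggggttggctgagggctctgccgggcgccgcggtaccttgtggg

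The Mrpl32 window held 1 NRF1 string and 1 Sp string. The Mrpl33 window held 1 ETS string, which spans the start. The Mrpl2 window held 2 Sp strings and the Mrpl46 window 1. A start region was listed for 67 of the 76 members. Of these, 25 (37.3%) held the ETS string, against 22.5% of tested genes and 9.93% of all 27025 genes with an entry. The YY1 string was in 8 (11.9%, against 4.08% and 1.64%) and the NRF1 string in 3 (4.48%, against 2.59% and 1.07%). The Sp string was in 34 (50.7%, against 73.0% and 38.2%). The WT1 string was in 0 of 67, and in 0.936% of tested genes and 0.544% of all genes. The ETS string was in 3 of the 6 rising members with an entry, 5 of the 12 falling members and 17 of the 49 that did not pass. A match is a description of letters and not of binding. The longest run of capitals in the Mrpl32 window is the NRF1 string as searched.

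Among large subunit genes, Mrpl32 showed the widest rise. Its protein is trimmed by the m-AAA protease in the mitochondrion before it joins the ribosome. In the order of arrays 1 to 4, used throughout, control cells gave Mrpl32 signals of 4435, 4014, 4826 and 4867. Wt1 siRNA cells gave 6322, 6206, 6621 and 6285. Every Wt1 siRNA array lay above every control array. The log2 difference was 0.49 ± 0.08 (SE; limma adjusted p = 0.000307), a 1.41-fold rise from 4536 ± 398 to 6359 ± 182 (SD, n = 4 each). The exact permutation test, two-sided, gave p = 0.0286, the lowest value possible with 4 arrays a group, for this and every other gene named below whose groups do not overlap.

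Mrpl23 and Mrpl22 encode homologues of the bacterial proteins L23 and L22, which line the exit tunnel. Mrpl23 signals were 3139, 3119, 3196 and 3402 on control arrays and 4464, 3942, 3997 and 4241 on Wt1 siRNA arrays. They did not overlap, and the log2 difference was 0.37 ± 0.08 (limma adjusted p = 0.00194). For Mrpl22 the signals were 5154, 5472, 5934 and 5707 on control arrays and 7233, 6995, 7616 and 6499 on Wt1 siRNA arrays, again without overlap. The difference was 0.35 ± 0.08 (adjusted p = 0.0028). Mrpl24, whose bacterial counterpart also lies at the tunnel exit, was at 0.01 ± 0.10 (adjusted p = 0.973), and Mrpl45, which helps to hold the ribosome at the inner membrane, was at 0.26 ± 0.10 (adjusted p = 0.062).

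Mrpl21, a homologue of bacterial L21, had control signals of 4398, 5254, 4799.7 and 4807 and Wt1 siRNA signals of 5705, 5262, 5294 and 6300.2. Control array 2 lay just under Wt1 siRNA array 2, so the groups barely separated. The difference was 0.23 ± 0.08 (limma adjusted p = 0.0456), and it stayed past the threshold in 7 of 19 alternative settings. Its other tested probe set was at 0.01.

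The widest fall was that of Mrpl33, a homologue of the small bacterial protein L33. Its signals were 2488, 2319.8, 3242 and 2454 on control arrays and 1639, 1997, 1689 and 1648 on Wt1 siRNA arrays. No Wt1 siRNA array reached the lowest control array. The level was 66.7% of control, a log2 difference of -0.58 ± 0.12 (limma adjusted p = 0.0017). The mean over its probe sets gave -0.41 (adjusted p = 0.144), where the other probe set had a difference of -0.24 and was too dim to be tested.

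Mrpl2 encodes the homologue of L2, a protein near the site where peptide bonds form. Its signals were 6775, 7253, 8385 and 7233 on control arrays and 5742, 5447, 5356 and 5603 on Wt1 siRNA arrays. The groups lay well apart, and the level was 74.9% of control (log2 -0.42 ± 0.08, limma adjusted p = 0.000933). Mrpl17, the homologue of L17, gave 9255, 8956, 8946 and 9265 on control arrays and 7133, 6948, 6832 and 6477 on Wt1 siRNA arrays. Its spread was small in both groups, and the difference was -0.41 ± 0.06 (adjusted p = 0.000264). Its other tested probe set was at -0.38 and did not pass. The mean over the Mrpl17 probe sets, which takes in an untested dim one at 0.07, was -0.24 and did not pass (limma adjusted p = 0.308).

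Mrpl37 encodes a protein of the large subunit without a bacterial counterpart. Its signals were 2647, 2599, 2652 and 2686 on control arrays and 2025, 2011, 1978 and 1932 on Wt1 siRNA arrays. The groups did not overlap, and the difference was -0.41 ± 0.08 (limma adjusted p = 0.00128). This probe set has the suffix _s_at, which marks probes that can match several transcripts. The probe sets that stood for Mrpl38 and Mrps6 carry the same suffix.

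Mrpl44, whose protein resembles RNase III enzymes, overlapped between the groups. Its signals were 4388, 5048, 5315 and 5437 on control arrays and 3384, 3447, 4405 and 3040.1 on Wt1 siRNA arrays, where array 3 exceeded control array 1. The difference was -0.51 ± 0.11 (limma adjusted p = 0.00288; exact permutation p = 0.0571). Other tested probe sets of Mrpl44 were at -0.25, -0.20 and 0.16, and the mean over its probe sets did not pass (-0.20, adjusted p = 0.0906).

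The other falls in the large subunit were smaller. Mrpl47, the homologue of L29, had control signals of 2246, 2512, 2207 and 2222 and Wt1 siRNA signals of 2018, 1877, 1974 and 1434. The groups did not overlap, though array 4 lay far under the others, and the difference was -0.34 ± 0.12 (limma adjusted p = 0.0328). Mrpl46 and Mrpl38 encode proteins of the central protuberance, a part of the large subunit. They were at -0.29 ± 0.09 (adjusted p = 0.0205) and -0.30 ± 0.10 (adjusted p = 0.0391), and only Mrpl46 had groups that did not overlap. Mrpl3, the homologue of L3, was at -0.21 ± 0.07 (adjusted p = 0.0373) on its brightest probe set.

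Other parts of the large subunit did not pass. Mrpl12, Mrpl10 and Mrpl11 encode the stalk and its base, where translation factors bind, and were at 0.08 ± 0.08, 0.10 ± 0.07 and 0.14 ± 0.09. Mrpl58, which frees chains from stalled ribosomes, was at -0.12 ± 0.09. Mrpl51 and Mrpl13 had the highest signals of the large subunit probe sets, which does not rank their transcripts, since probe sets differ in how well they bind. Mrpl51 gave 18568, 19079, 21376 and 18089 on control arrays and 20122, 19354, 19318 and 17648 on Wt1 siRNA arrays, fully overlapping, with a difference of -0.01 ± 0.07 and a 95% interval of -0.17 to 0.15. Mrpl13 gave 11017, 12106, 13166 and 11337 on control arrays and 12905, 12922, 13179.9 and 11024 on Wt1 siRNA arrays, also overlapping, with a difference of 0.07 ± 0.08 (interval -0.10 to 0.25).

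Proteins with and without a bacterial counterpart were both represented among the changes. Of 29 large subunit genes with a bacterial homologue, 4 rose and 5 fell. Of 18 without one, 4 fell and 14 did not pass. In the small subunit 2 rose and 4 fell of 18 with a homologue, and 1 rose and 1 fell of 11 without. With and without a homologue, 31.0% and 22.2% of large subunit genes and 33.3% and 18.2% of small subunit genes were called. Over all tested genes the share called was 37.3%. The medians of these groups were 0.02 and -0.08 in the large subunit and 0.01 and 0.04 in the small subunit. No test was made between the groups.

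**Figure D2:**
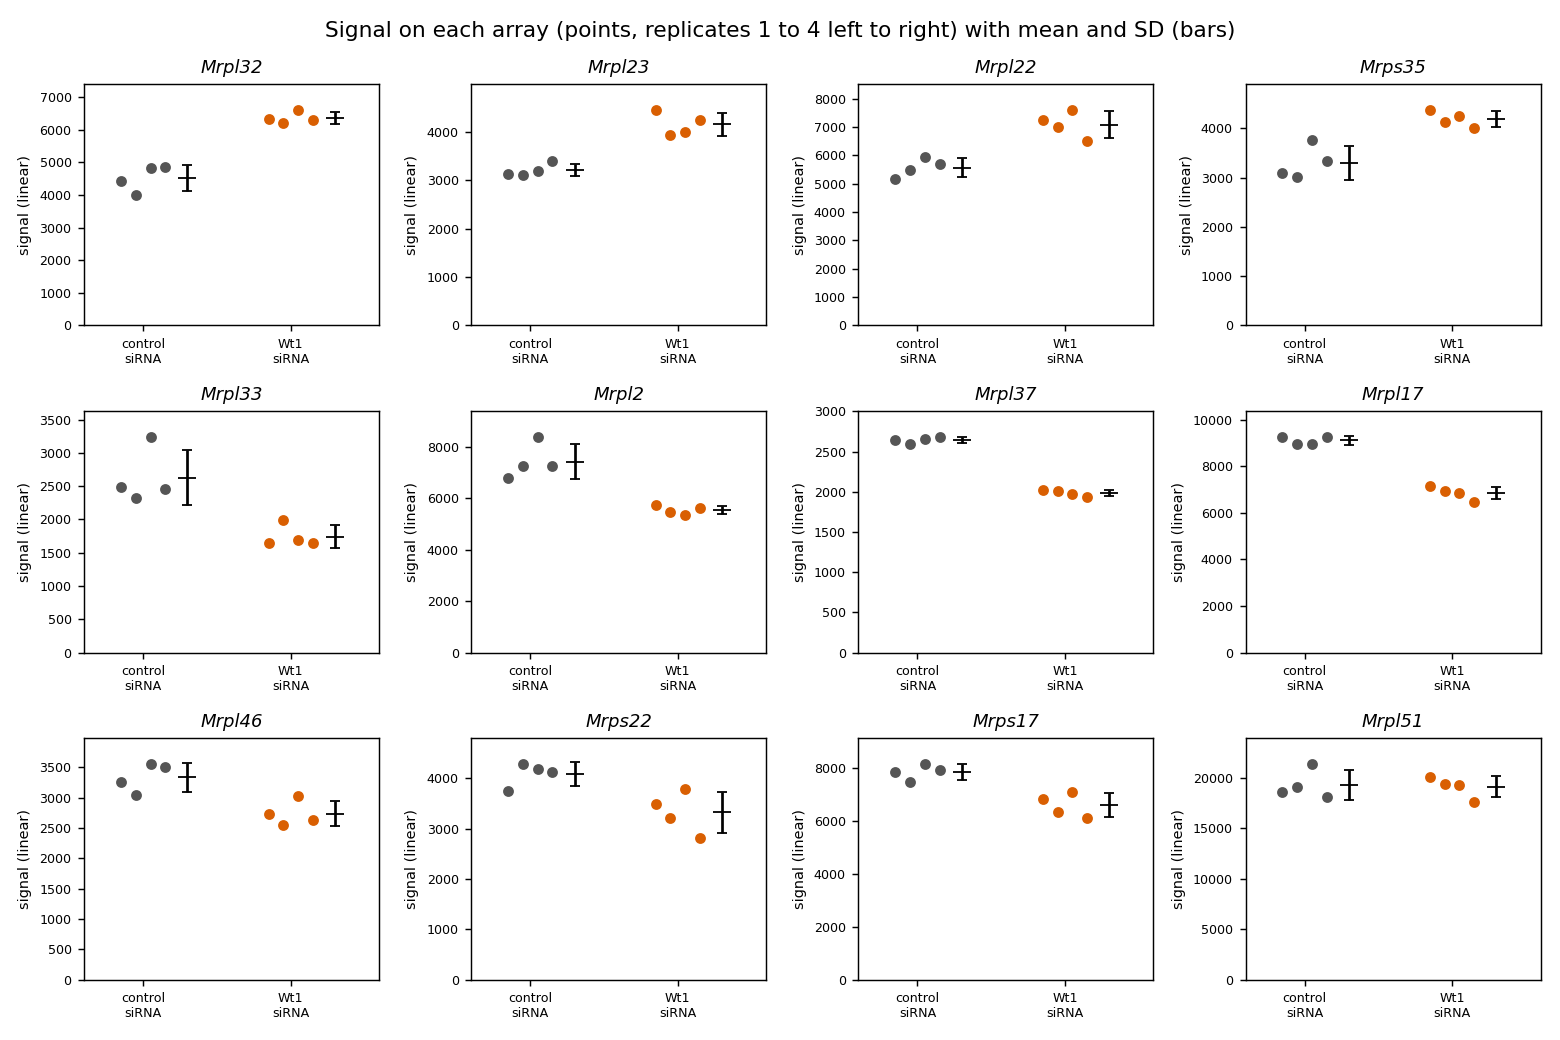
Signal of 12 members on each array (y axis, linear signal starting at 0; points, arrays 1 to 4 of each group from left to right; bars, mean and SD). The upper row shows 4 genes that rose, the lower rows 7 genes that fell and Mrpl51, which did not pass. Mrps22 is the only called gene shown whose groups overlap.

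In the small subunit the widest rise was that of Mrps35, a protein found only in mitochondrial ribosomes. Its signals were 3089.7, 3005, 3766 and 3340.1 on control arrays and 4385, 4129, 4262 and 4018 on Wt1 siRNA arrays. Every Wt1 siRNA array exceeded every control array, and the difference was 0.35 ± 0.09 (SE; limma adjusted p = 0.00589), a 1.28-fold rise. Mrps6, the homologue of S6, gave 10077, 10228, 11476 and 11164 on control arrays and 12456, 12458, 12981 and 12288 on Wt1 siRNA arrays. They did not overlap, and the difference was 0.23 ± 0.07 (adjusted p = 0.0182), with 0.25 on the other tested probe set.

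Mrps18a is one of the genes related to bacterial S18, and its protein is placed in the large subunit despite its name. Its signals were 5168, 5033, 5022 and 4755 on control arrays and 5803, 5614, 5442 and 6489 on Wt1 siRNA arrays. The groups did not overlap, and the difference was 0.22 ± 0.08 (limma adjusted p = 0.0323). Its relative Mrps18b moved the other way. The Mrps18b signals were 5018, 4892, 4839 and 4672 on control arrays and 4159, 4194, 4238 and 3649 on Wt1 siRNA arrays, without overlap, and the difference was -0.26 ± 0.08 (adjusted p = 0.0151). Mrps18c was at 0.01 ± 0.11 and did not pass (adjusted p = 0.937). The S18 relatives thus stood at 0.22, -0.26 and 0.01, and the differences between them were not tested.

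Mrps17, the homologue of S17, had signals of 7862, 7462, 8159 and 7933 on control arrays and 6847, 6331, 7094 and 6115 on Wt1 siRNA arrays. The groups did not overlap, and the difference was -0.25 ± 0.07 (limma adjusted p = 0.0133). Mrps22, which has no bacterial counterpart, gave 3746, 4286, 4177 and 4124 on control arrays and 3480.1, 3211, 3789.7 and 2820.3 on Wt1 siRNA arrays. Wt1 siRNA array 3 lay above control array 1, and the difference was -0.30 ± 0.10 (adjusted p = 0.024). Mrps28 was at -0.24 ± 0.09 with overlapping groups (adjusted p = 0.0422).

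Mrps14, the homologue of S14, gave 11521, 11688, 12447 and 11892 on control arrays and 10717, 9738, 11001 and 10275 on Wt1 siRNA arrays. The groups did not overlap, and the difference was -0.19 ± 0.07 (limma adjusted p = 0.0389). Its other tested probe set was at 0.20, so the direction of Mrps14 rested on the brighter probe set. The small subunit genes not called included Mrps12, whose protein lies at the decoding site, at -0.03 ± 0.08, and Mrps16 at 0.31 ± 0.13 (adjusted p = 0.0648), the widest difference of a member that did not pass. Mrps30, another protein placed in the large subunit, was at -0.03 ± 0.08. Mrps36, whose protein has since been assigned to the 2-oxoglutarate dehydrogenase complex, was at 0.07 ± 0.11.

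The remaining calls held in differing numbers of alternative settings, which include median centring, other probe set rules and leaving out each array. Mrps17 and Mrps18b passed in 18 of 19, Mrps6 in 16 of 19, Mrpl46 in 15 of 18 and Mrps22 in 14 of 19. Mrps18a passed in 11 of 19, Mrpl47 and Mrpl38 in 9 of 18 each, Mrpl3 in 8 of 19, and Mrps14 and Mrps28 in 7 of 19 each. At least 1 array whose omission ended the call was found for each of Mrpl3, Mrpl21, Mrpl38, Mrpl46, Mrpl47, Mrps6, Mrps14, Mrps18a, Mrps22 and Mrps28.

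Probe sets of a gene did not always give the same direction. Of the 156 member probe sets, 128 were in the brighter part of all probe sets and were tested, and 28 were dimmer, with mean signals of at most 308 and differences from -1.03 to 1.96. With limma 19 of the 128 (14.8%) passed, with 4 higher and 8 lower in the large and 2 higher and 5 lower in the small subunit, against 23.1% of 22518 probe sets tested. In 33 genes more than 1 probe set was tested. All pointed the same way in 20 of these and not in 13, and no gene had probe sets called in opposite directions.

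A gene represented by its brightest probe set can miss what another shows. The calls on other probe sets were 5 in number. The dimmer Mrpl3 probe set gave 3502, 3494, 3341 and 3669 on control arrays and 2433, 2859, 2474 and 2530.4 on Wt1 siRNA arrays, without overlap, at -0.45 ± 0.08 (limma adjusted p = 0.00261), against -0.21 on the brighter one. An Mrpl57 probe set of low signal was at -0.80 ± 0.22 (adjusted p = 0.022), while the brighter was at -0.07. An Mrps5 probe set was at -0.64 ± 0.14 (adjusted p = 0.00744), while the brightest of its 5 tested probe sets was at 0.18. An Mrps24 probe set was at -0.31 ± 0.10 (adjusted p = 0.0363) and an Mrpl11 probe set at 0.53 ± 0.14 (adjusted p = 0.0202), and the probe sets that stood for these genes were at -0.09 and 0.14. The called Mrps24 and Mrpl11 probe sets have the suffixes _s_at and _x_at, which mark probes that can match several transcripts. The groups of the called Mrpl57 probe set overlapped.

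**Figure D3:**
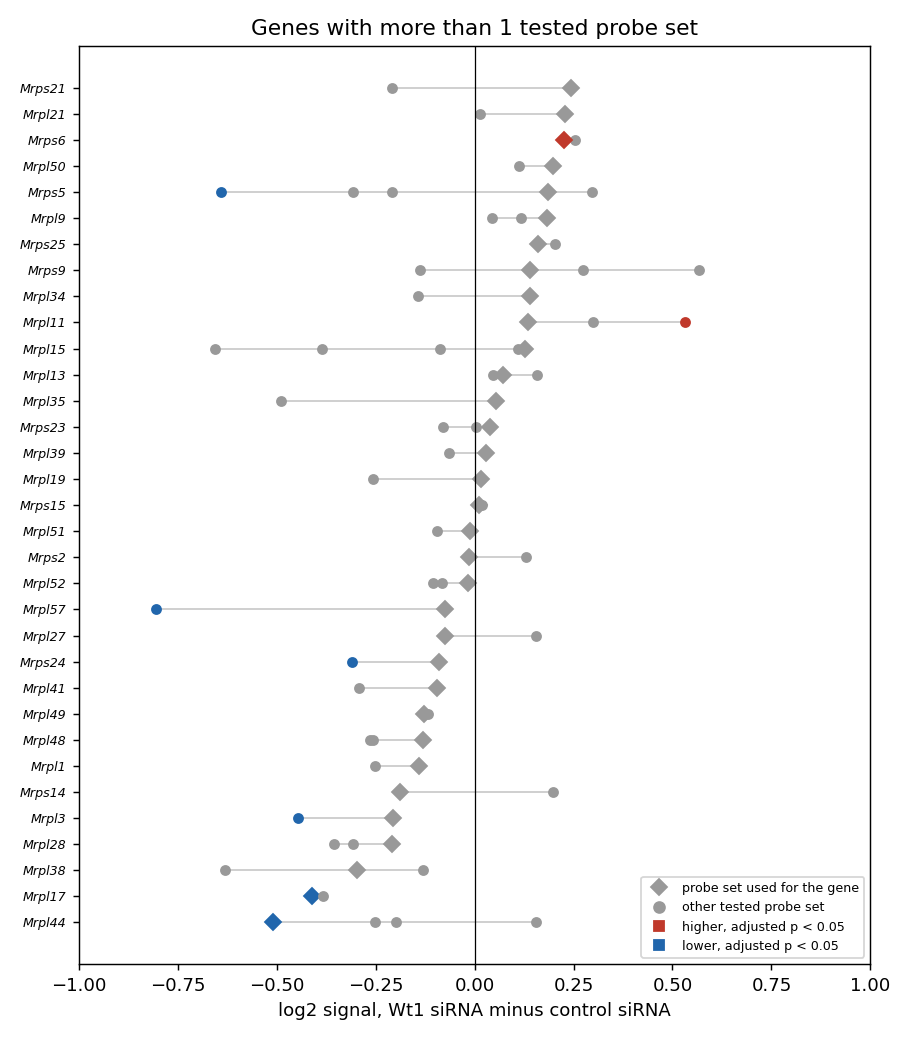
Difference of each tested probe set (x axis, log2 signal, Wt1 siRNA minus control siRNA) for the 33 genes with more than 1, where diamonds are the brightest probe set of a gene, circles the others, and red and blue are called higher and lower. Probe sets of Mrpl17 lie close together at -0.41 and -0.38, and those of Mrps5 span 0.

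Many members start beside another gene. For 26 of the 67 members with a listed start, another gene started on the opposite strand within 1000 bases, which is how a promoter shared in both directions is usually laid out. The share of all genes with such a neighbour was not counted, so this is not shown to be particular to the members. Mrpl46 and Mrps11 start 42 bases apart, so the Mrpl46 window printed above also covers the start of Mrps11. Mrpl46 was at -0.29 ± 0.09 (limma adjusted p = 0.0205) and Mrps11 at 0.12 ± 0.09 (adjusted p = 0.342). Mrpl2 starts 141 bases from Klc4, a kinesin light chain gene, and Klc4 rose by 0.32 ± 0.11 (adjusted p = 0.03) where Mrpl2 fell. Mrpl32 starts 205 bases from Psma2, a proteasome subunit gene, which was at -0.02 ± 0.09 (adjusted p = 0.875).

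Counted once for each of the 20 members with a tested neighbour, both genes passed in 1 case, the member alone in 4, the neighbour alone in 5 and neither in 10. The share called over all tested genes was 37.3%, and whether these pairs differ from pairs of unrelated genes was not tested. Besides Mrps11 beside Mrpl46, the neighbour alone passed for Mrpl41, Mrps12, Mrps27 and Mrps18c. Pnpla7, a lysophospholipase gene that starts 935 bases from Mrpl41, rose by 0.27 ± 0.09 (limma adjusted p = 0.0305), beside -0.09 ± 0.13 for Mrpl41. Sars2, the mitochondrial seryl-tRNA synthetase gene, starts 147 bases from Mrps12 and was at -0.72 ± 0.17 (limma adjusted p = 0.00555), beside -0.03 for Mrps12. Ptcd2, which starts 108 bases from Mrps27, was at -0.60 ± 0.10 (adjusted p = 0.000409), beside 0.07. Helq, a DNA helicase gene that starts 159 bases from Mrps18c, was at -0.59 ± 0.13 (adjusted p = 0.00349), beside 0.01. The ratio of the genes within each array was compared between the groups for all 19 pairs with both genes tested. It gave the smallest exact permutation p, 0.0286, in 5 pairs, namely Mrpl2 with Klc4, Mrpl32 with Psma2, Mrpl49 with Fau, Mrps18c with Helq and Mrps27 with Ptcd2. Adjusted over the 19 pairs by Benjamini-Hochberg these exact permutation values were 0.109, so none passed. The log2 ratio moved by -0.74 for Mrpl2 over Klc4 and by 0.51 for Mrpl32 over Psma2, with the same direction in all 4 Wt1 siRNA arrays relative to every control array.

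**Figure D4:**
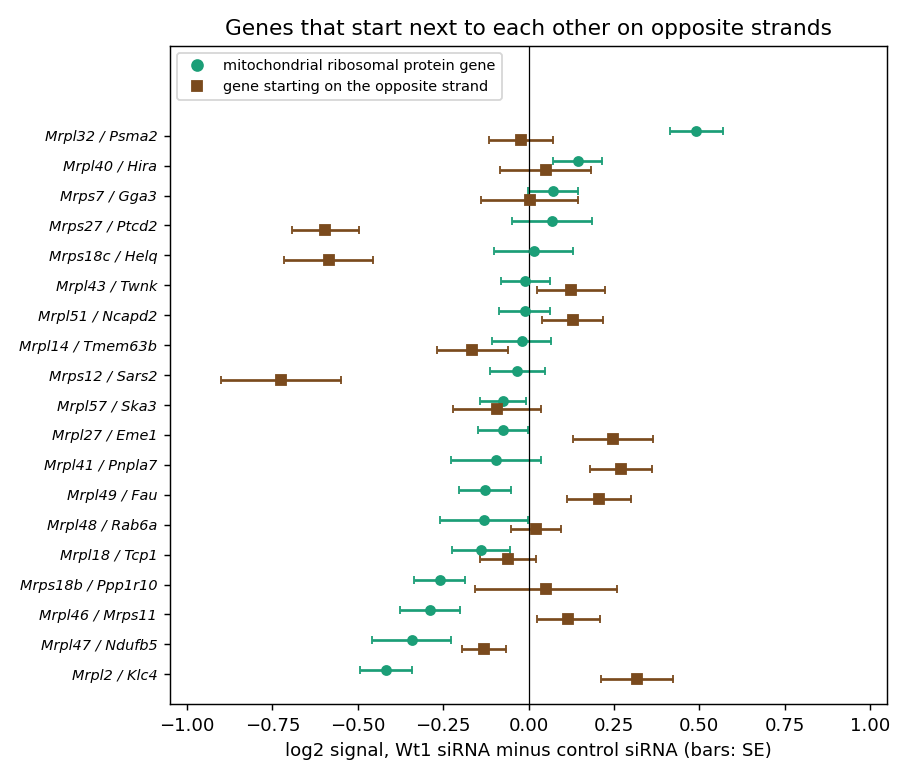
Differences (x axis, log2 signal, Wt1 siRNA minus control siRNA; bars, SE) of 19 pairs of genes that start within 1000 bases of each other on opposite strands, with the mitochondrial ribosomal protein gene as a circle and its neighbour as a square; for Mrpl46 the neighbour is Mrps11. Mrpl2 and Klc4 lie at -0.42 and 0.32, and Mrps12 and Sars2 at -0.03 and -0.72.

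Other genes of mitochondrial gene expression were set beside the members, from lists chosen with earlier results of these data known. None of the 4 tested ribosomal proteins whose symbols do not follow the pattern passed limma (also none at an unadjusted p under 0.05). Of 10 translation factors 1 fell, the elongation factor gene Gfm1 at -0.31 ± 0.10 (adjusted p = 0.0317). Of 15 genes of mitochondrial tRNA charging, which are synthetase genes and the amidotransferase genes Qrsl1 and Gatc, 3 fell, namely Sars2, Rars2 at -0.41 ± 0.09 and Gars, which also serves the cytosol, at -0.34 ± 0.08. Of 23 assembly genes 1 rose and 1 fell. The rise was Rbfa, a small subunit maturation factor, at 0.22 ± 0.07, and the fall was Tfb1m, which methylates the small subunit RNA, at -0.45 ± 0.11.

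Of 22 genes of mitochondrial transcription and RNA handling, 4 rose and 1 fell. Top1mt, the mitochondrial topoisomerase gene, was at 0.64 ± 0.12, Lrpprc, which stabilizes mitochondrial messages, at 0.54 ± 0.09 and Tfam, which packs mitochondrial DNA, at 0.27 ± 0.07, while Fastkd5 fell to 76.9% of control. Of 11 regulators 2 rose, the coactivator gene Pprc1 at 0.37 ± 0.12 and Yy1 at 0.18 ± 0.06. Of 20 import genes 2 rose and 3 fell, with the inner membrane channel gene Timm23 at -0.53 ± 0.07 as the widest. The median differences of these lists ran from -0.10 for assembly to 0.18 for regulators, beside 0.02 for all tested genes. The share called was 8.70% of assembly genes, 10.0% of translation factors, 18.2% of regulators, 20.0% of tRNA charging genes, 22.7% of transcription and RNA genes and 25.0% of import genes, against 37.3% of all tested genes.

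Cytosolic ribosomal proteins, the counterpart of the members outside the mitochondrion, had a higher median. Of 44 tested genes 1 rose and 2 fell (6.82%), with a median difference of 0.20, against -0.02 and 0.01 for the mitochondrial subunits. The gap was not tested. Of the 80 genes of that list 45 had a probe set with a single symbol, and the others were not analysed here. With arrays centred on their medians the cytosolic list had 11 genes higher and a median of 0.31.

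**Figure D5:**
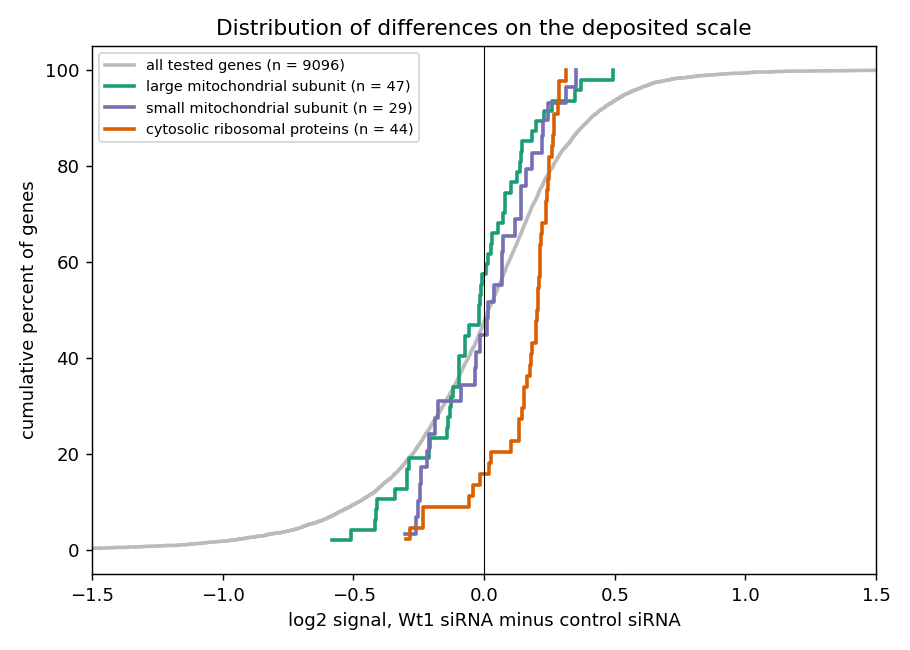
Cumulative percent of genes (y axis) against the difference (x axis, log2 signal, Wt1 siRNA minus control siRNA). Curves are all 9096 tested genes, 47 genes named for the large and 29 for the small mitochondrial subunit, and 44 cytosolic ribosomal protein genes. The mitochondrial curves are steeper than that of all genes and cross 50% near 0, while the cytosolic curve crosses it at 0.20.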

How the data were processed

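Total RNA of 8 LB-22 samples was measured on Affymetrix whole-genome mouse arrays, 1 per sample. The authors deposited a linear signal intensity for each probe set; the tool, per the submitters' processing notes, was MAS5 (version and genome build not given in the sources used here). The mean of the central values, trimmed at both ends, was the same on every array. No pair of arrays shared more than 42 identical values.

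Probe sets were named from the platform annotation, with symbols updated through Entrez IDs for 34741 of 34945 probe sets with 1 symbol; 932 had several, 9160 were unnamed here and 64 controls were left out. Each gene was represented by its brightest probe set, and the brighter share of 0.5 of genes (lowest mean signal 664) was tested. Signals were log2 transformed with nothing added and tested with limma 3.58.1 (R 4.3.3; lmFit, eBayes with intensity trend), with Benjamini-Hochberg adjustment over all tested genes and a threshold of 0.05. Probe sets were tested the same way. Values after ± are the SE for log2 differences and the SD for signals. The procedure was tested on simulated data. The number of arrays limits the precision.

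Members and lists were chosen with earlier results of these data known. Members named with all values were, per subunit, up to 5 rises and 5 falls past the threshold without overlap and the 2 of highest signal; other called members were added. Of each other list up to 4 called genes were eligible. Start regions are from RefSeq (GRCm38.p6). Alternatives were the replicate block, other scalings, offsets of 16 and 64, other filters (none or a share of 0.25), no trend, other probe set rules and leaving out each array. Figures used matplotlib 3.10.9.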

Additional observations from a re-analysis of the deposited data

Results flagged for a closer look

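In 4 of 36 groups of 4 arrays examined for the members given in full and Wt1, an array lay far from the other 3, where chance gives about 1 in 20. Mrpl33 had its highest Wt1 siRNA signal, 1997.3, on array 2. Mrpl47 had its highest control signal, 2512.4, on array 2. Mrpl13 and Mrps18b had their lowest Wt1 siRNA signals, 11023.5 and 3648.8, on array 4, which is also the array with the low subunit medians.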

How the results depend on the processing

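With each array centred on its median, 16 of the 21 called members no longer passed. Of all tested genes 26.0% were called in this setting, against 37.3% on the deposited scale. This setting left 1 large and 0 small subunit genes lower, 1 large and 0 small subunit probe sets lower, 1 small subunit probe set higher and subunit medians of 0.088 and 0.12. Small subunit genes called lower numbered 3 with the mean over probe sets, with no filter, with no intensity trend and with the replicate block, and large subunit genes called lower numbered 5 among the brightest share of 0.25, where fewer genes were tested. For small subunit probe sets, no filter and no intensity trend each gave 1 higher and 1 lower, and the share of 0.25 gave 4 higher. The cause was not tested. For the other settings of this section the share of all tested genes or probe sets called is not given. Member counts in those settings therefore cannot be set against that share. Leaving out 1 array gave 3 to 5 large subunit genes higher and 5 to 9 lower, 1 to 5 small subunit genes higher and 2 to 6 lower, 3 to 4 large subunit probe sets higher and 6 to 10 lower, and 1 to 4 small subunit probe sets higher and 1 to 5 lower. Medians then ran from -0.05 to 0.01 (large) and from -0.03 to 0.03 (small). Between 2 and 9 of the 21 calls were lost, most without control array 4 (9), then without control array 2 (8) and Wt1 siRNA array 4 (8). Values of the other sign were found for Mrpl51 (0.0048 centred on tested genes, 0.10 on medians, 0.011 with the mean over probe sets, and -0.041 to 0.039 with 1 array left out, above 0 without Wt1 siRNA array 4 or control array 3), and, with the mean over probe sets, Mrps14 (0.17) and Mrpl3 (0.0032). These means took in probe sets too dim to be tested, at 0.50 for Mrps14 and at 0.52 and 0.15 for Mrpl3. The tested probe sets of Mrpl3 were at -0.21 and -0.45. Offsets of 16 and 64 changed no call of the 21.

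Deviations from the group mean correlated at 0.084, -0.077, 0.083 and 0.039 between same-numbered arrays and at -0.22 to 0.12 between others. The same-numbered values lay within the range of the others and so did not show pairing. With 4 arrays per group these values cannot decide whether arrays were paired. The labels give only a replicate number. The replicate block gave 3 large subunit genes higher and 9 lower, 4 small subunit genes higher and 3 lower, and 1 small subunit probe set higher and 3 lower.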
